A study of Homo sapiens with 12 samples.

Results

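The clustered replication-dependent histone genes were followed in HepG2 cells, an established human liver cancer line, under low and high glucose with and without valproic acid (VPA). VPA blocks histone deacetylases, the enzymes that strip acetyl groups from histone tails. The members were chosen by name alone: every row of the count table whose symbol begins with HIST1H, HIST2H, HIST3H or HIST4H, which gave 28 of 16389 genes. They comprised 10 H2B, 6 H2A, 5 H3, 5 H4 and 2 H1 genes, of which 25 belong to HIST1, 2 to HIST2 and 1 is HIST4H4, and no symbol began with HIST3H. Cells were held at 5.5 mM glucose (LG) or 20 mM glucose (HG) for 48 h, and for the groups LGV and HGV 1 mM VPA was then added for another 12 h. Each of the 4 groups had 3 poly(A) RNA libraries, named here by group and replicate number. When the cells without VPA were collected relative to those 12 h is not given in the sources used here, so time in culture and VPA cannot be told apart, and they do not state that replicates were separate cultures, so each p-value measures the spread between these samples, which may be technical.

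Replication-dependent histone genes supply the core histones H2A, H2B, H3 and H4 and the linker histone H1 that package newly copied DNA. They are transcribed in S phase from gene clusters, where the coactivator NPAT is switched on by cyclin E with CDK2. Their messages lack introns and are normally cut just after a short stem-loop instead of receiving a poly(A) tail, and the stem-loop is bound by the protein SLBP. Some members can also be read past the stem-loop to a later cleavage site and then carry a poly(A) tail, a form known from differentiating and non-dividing cells. Libraries made from poly(A) RNA therefore catch only part of what these genes transcribe, and the values below are levels of that part.

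The stem-loop was looked for on GRCh37 in the 200 bases after each stop codon, as a run of 16 bases that begins with GG, ends with CC, carries CTT, T and A at the conserved places between them with all other letters free, and forms at least 5 of 6 stem pairs. Gene models came from GENCODE release 44 lifted to GRCh37, a later annotation than the one used for the counts. All 25 protein-coding members that could be placed held it, 27 to 58 bases after the stop codon and with 6 of 6 pairs, while 0 of 2683 other protein-coding genes of the table on chromosomes 1, 6 and 12 did. The most frequent form was shared by 13 members of types H1, H2A, H2B and H3. Another was shared by 4 H2B genes (HIST1H2BC, HIST1H2BD, HIST1H2BJ and HIST1H2BK), a further one by the 4 placed H4 genes with a stop codon, and the forms of HIST1H3E, HIST1H2AG, HIST2H2AC and HIST1H2AK occurred in 1 member each. The members the results turn on follow in the coding direction, with the 16-letter stem-loop in capitals.
HIST1H2AC (H2A, plus strand, chr6:26124897-26124912): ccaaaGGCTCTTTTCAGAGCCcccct
HIST1H1C (H1, minus strand, chr6:26055972-26055987): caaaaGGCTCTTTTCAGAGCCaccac
HIST1H2BC (H2B, minus strand, chr6:26123700-26123715): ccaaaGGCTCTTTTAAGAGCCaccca
HIST1H4H (H4, minus strand, chr6:26285359-26285374): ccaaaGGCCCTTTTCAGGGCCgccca
HIST1H3E (H3, plus strand, chr6:26225824-26225839): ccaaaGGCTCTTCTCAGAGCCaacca
HIST1H2AG (H2A, plus strand, chr6:27101294-27101309): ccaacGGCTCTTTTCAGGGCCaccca

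What lies beyond the stem-loop split the members into 2 kinds of gene model. In 10 members the annotated exons ran on for 380 to 3704 bases after the stem-loop, and all 10 held an AATAAA or ATTAAA poly(A) signal there: HIST2H2BE, HIST4H4, HIST1H2BC, HIST1H2AC, HIST1H2BD, HIST1H3E, HIST1H4H, HIST1H2BJ, HIST1H3H and HIST1H2BN. In the other 15 the model ended 4 to 8 bases after it and 0 held such a signal. HIST1H2BG and HIST1H2BF could not be placed on these models, and HIST1H4PS1 is annotated as a processed pseudogene. The 23 placed HIST1 genes lay within chr6:26031817-27861669, the HIST2 pair within chr1:149856009-149858961, and HIST4H4 on the minus strand at chr12:14920933-14924065.

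Near-identical copies limit what 50-base reads can assign. In 21 of the 26 placed members at least 90% of all 50-base stretches of the exons were unique in the genome, and the lowest shares were 36.5% for HIST1H2AI, 42.8% for HIST1H2BK and 76.0% for HIST2H2AC, so their values are uncertain. The strand setting of the read counting is not stated, and exons of HIST1H2BC overlap the iron regulator HFE on the other strand, while HIST1H4H overlaps an antisense transcript. HFE itself gave log2 fold changes of -0.37 (FDR = 0.112) for HGV against HG and -0.16 (FDR = 0.646) for LGV against LG, and of 0.63 (FDR = 0.0487) for HG against LG, where HIST1H2BC went the other way.

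Neighbouring members are often transcribed away from each other from 1 shared stretch of DNA, and 5 such pairs had both partners among the 28. The stretches between the annotated start sites of 2 pairs are shown because the partners' values parted under VPA. They are printed for the plus strand of GRCh37, with capitals for the octamer ATTTGCAT (the site of POU2F1), for CCAAT and for TATAAA on either strand, overlapping matches included.
HIST1H2BC (leftward) to HIST1H2AC (rightward), chr6:26124155-26124372: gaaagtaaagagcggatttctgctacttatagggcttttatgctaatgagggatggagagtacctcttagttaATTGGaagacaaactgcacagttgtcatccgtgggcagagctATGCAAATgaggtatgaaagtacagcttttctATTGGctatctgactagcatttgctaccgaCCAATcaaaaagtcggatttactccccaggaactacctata
HIST1H2BJ (leftward) to HIST1H2AG (rightward), chr6:27100575-27100821: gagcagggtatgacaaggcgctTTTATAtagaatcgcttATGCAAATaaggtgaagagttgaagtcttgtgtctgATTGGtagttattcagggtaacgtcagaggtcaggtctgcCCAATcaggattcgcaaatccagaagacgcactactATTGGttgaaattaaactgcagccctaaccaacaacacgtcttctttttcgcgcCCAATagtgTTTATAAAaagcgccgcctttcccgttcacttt

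Both stretches held 1 octamer. The first held 3 CCAAT and 0 TATAAA matches, and the second 4 CCAAT and 3 TATAAA matches. That 0 holds only for the stretch between the starts annotated on GRCh37: the RefSeq windows of HIST1H2BC and HIST1H2AC, described next, each held TATAAA. Across the RefSeq promoter windows of GRCh38.p14, from 250 bases before to 50 after each start, the octamer stood in 12 of the 26 members matched, or 46.2%, and in 1.8% of all 27305 promoters. By type it stood in 7 of 10 H2B, 4 of 6 H2A, 1 of 5 H3, 0 of 2 H1 and 0 of 3 H4 windows. CCAAT was found in 23 of 26 members, or 88.5%, against 35.7% of all promoters, and the windows without it were those of the 3 H4 genes. TATAAA was found in 18 of 26, or 69.2%, against 12.0%. These are letters in a window and not measured binding.

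The libraries held 29798442 to 45572694 counted reads, of which the 28 members took 0.0131% to 0.0226%. Levels are given as CPM, the usual counts relative to library size, after scaling of the libraries by the trimmed mean of M values (TMM), and 3 reads correspond to 0.0713 to 0.112 CPM, a floor that covers counting error only. All 13 hepatocyte markers checked (ALB, AFP, TTR and others) were in the table, with summed levels of 48850 to 78770 CPM. Of 10 markers of other cell types, 4 were in the table (VWF, CDH5, COL1A1 and MYH11), and their sum was 3.91 to 5.87 CPM in LG, 3.92 to 5.74 in HG, 6.37 to 8.37 in LGV and 7.42 to 10.6 in HGV. Their part in the histone values was not tested. In bulk RNA, fewer cells in S phase and less histone RNA per cell cannot be told apart.

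A few members carried most of the histone reads. HIST1H2AC alone made up 36.9% of the summed CPM, HIST1H1C, which encodes linker histone H1.2, brought this to 55.8% and HIST2H2BE to 69.8%. With HIST1H2BD, HIST1H2BK and HIST1H2BN, the 6 members of at least 5 CPM reached 83.7%, while 18 members lay under 2 CPM and 12 under 1 CPM on average over the 12 libraries. Per kilobase of exon model the order was different: HIST1H1C came first with 43.9 CPM per kb, before HIST1H2AC with 37.7, HIST1H2BK with 16.2, HIST2H2BE with 10.7 and HIST1H2BD with 10.0. HIST1H2AG reached 5.61 and HIST1H4E 4.36 CPM per kb, and HIST1H3E was lowest with 0.224. These lengths come from the later gene models, which is a limit on the order.

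**Figure D1:**
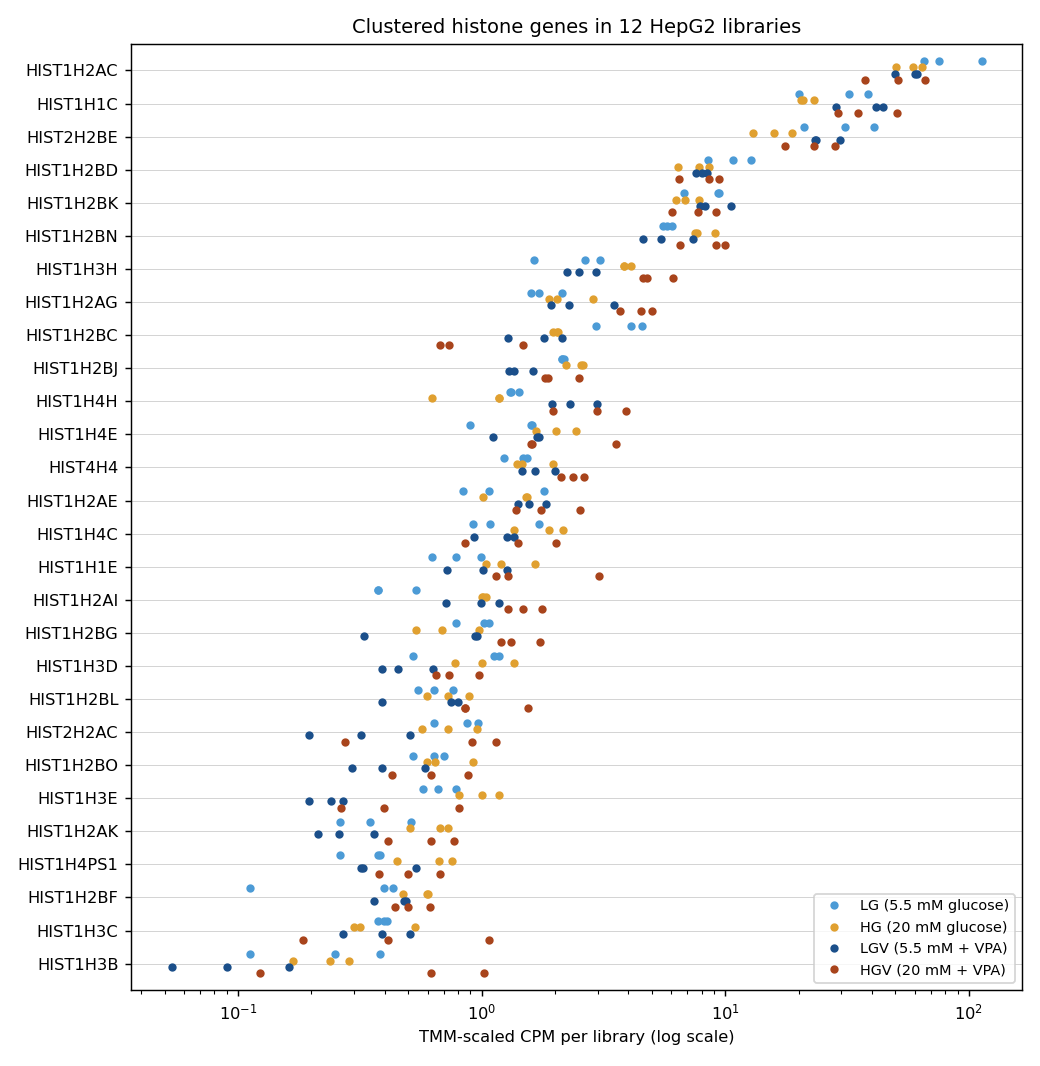
Level of each of the 28 clustered histone genes in each of the 12 libraries, 1 point per library, in TMM-scaled CPM on a log axis, with genes ordered by mean level and groups by colour. HIST1H2AC lies highest, between 37.4 and 113 CPM, and 12 genes average under 1 CPM.

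The summed level of all 28 was 193.9, 226.6 and 165.5 CPM in LG 1 to 3, 158.1, 130.1 and 150.4 in HG, 179.8, 162.2 and 158.5 in LGV, and 167.8, 216.2 and 132.1 in HGV. Every HG library thus lay below every LG library, and the HGV libraries spread over nearly the whole range. The means were 195.3 ± 30.6 CPM in LG, 146.2 ± 14.5 in HG, 166.8 ± 11.4 in LGV and 172.0 ± 42.2 in HGV (SD, n = 3 each), given without a test. Without HIST1H2AC they were 110.7 ± 9.81, 88.3 ± 7.47, 109.7 ± 8.28 and 120.5 ± 28.0.

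The histone types did not follow 1 order. H2A, which is mostly HIST1H2AC, averaged 89.4 CPM in LG and 63.9, 62.9 and 60.7 in HG, LGV and HGV. H2B averaged 64.5, 45.8, 53.7 and 54.0 CPM in the same order, and H1 31.0, 22.8, 39.2 and 40.2. The H1 sum is mostly HIST1H1C, and HIST2H2BE is the most abundant H2B gene. H3 averaged 4.71 CPM in LG, 6.59 in HG, 3.78 in LGV and 7.58 in HGV, so that both high-glucose groups exceeded both low-glucose groups. H4 averaged 5.71, 7.07, 7.20 and 9.53 CPM. By gene model, the 10 extended members summed to 144.0 CPM in LG, 101.5 in HG, 106.7 in LGV and 105.2 in HGV, and the 15 that end at the stem-loop to 49.7, 42.8, 58.6 and 64.4. Each sum is dominated by 1 member, HIST1H2AC (84.7, 57.9, 57.2 and 51.55 CPM) and HIST1H1C (30.2, 21.5, 38.2 and 38.35 CPM). By gene, log2 fold changes for HG against LG were positive in 5 of 10 extended members and in 10 of 14 tested members ending at the stem-loop.

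**Figure D2:**
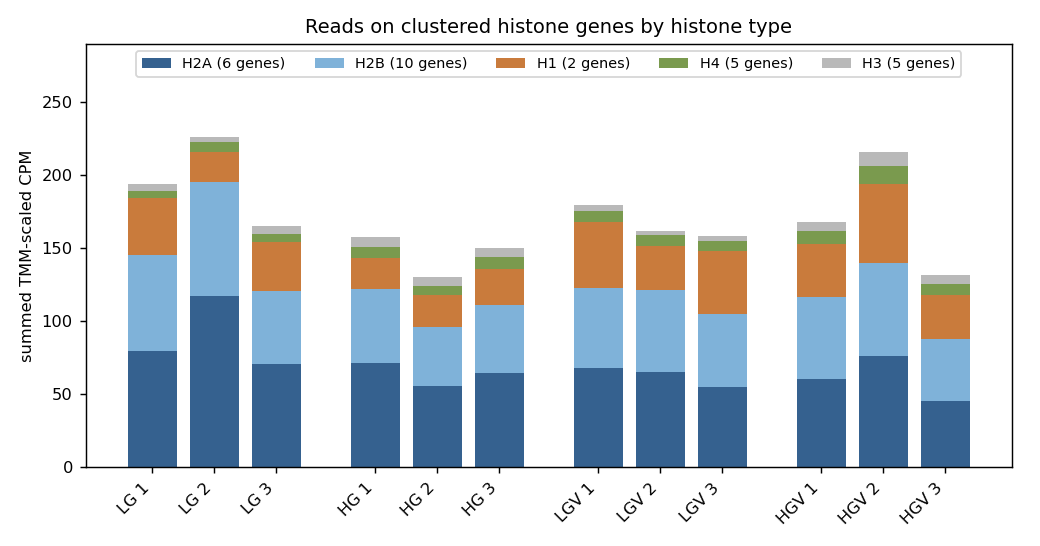
Summed TMM-scaled CPM of the clustered histone genes in each library, as bars stacked by histone type and starting at 0. H2A and H2B fill most of every bar, the 3 HG bars reach 130.1 to 158.1 CPM, and HGV 2 stands at 216.2 CPM above HGV 1 at 167.8 and HGV 3 at 132.1.

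One library stood apart in these genes. HGV 2 was the highest of its group in 20 of 28 members, whereas it was the highest in 40.6% of all rows. Its median log2 ratio to the mean of the other 2 HGV libraries was 0.52 over the members and 0.00 over all rows. In the 15 members whose models end at the stem-loop the median was 0.67, or 1.59-fold, with HGV 2 highest in 12, and in the 10 extended members it was 0.42, with HGV 2 highest in 7. HGV 3 was the lowest of its group in 20 of 28 members, against 30.9% of all rows. In HG, replicate 2 was lowest in 17 of 28, against 35.0% of rows. HGV 2 also had the most reads of its group, 40218012 against 29798442 and 31105217, and the highest summed level of 36 S phase genes, 1516 CPM against 1331 in HGV 1 and 1469 in HGV 3. The part of either in the histone values was not tested. Without HGV 2, a choice made after seeing the data, the HGV means of 2 libraries were 149.9 CPM for all 28 members, 33.3 for H1, 53.1 for H2A, 49.1 for H2B, 6.38 for H3 and 8.18 for H4. H1 then lay below its LGV mean instead of above it, and the members ending at the stem-loop, at 54.4 CPM, also lay below theirs. The calls of members that use HGV are given without HGV 2 below.

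**Figure D3:**
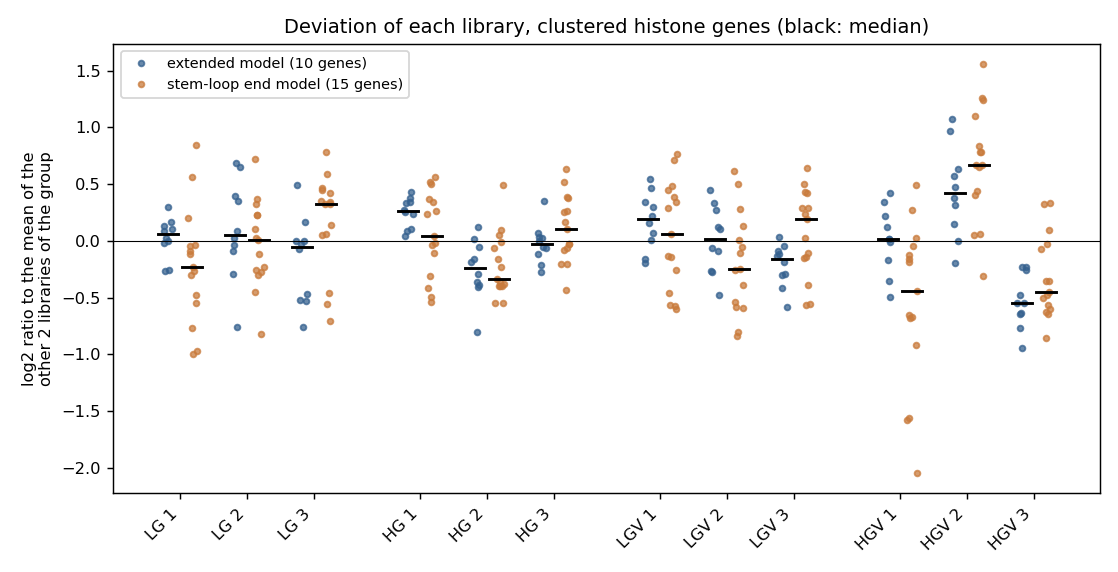
Log2 ratio of each library to the mean of the other 2 libraries of its group, 1 point per clustered histone gene, with black bars for medians and colours for the 10 extended models and the 15 that end at the stem-loop. The medians of HGV 2 are 0.42 and 0.67, and those of HGV 3 are -0.55 and -0.45.

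Under high glucose, VPA (HGV against HG) was associated with higher levels of 6 members and a lower level of 1. Those that rose were HIST1H4H, HIST1H2AG, HIST1H2BG, HIST1H1C, HIST4H4 and HIST2H2BE, and HIST1H2BC fell. All 28 members were tested and 7 of them were called at a false discovery rate (FDR) of 0.05, while 25.8% of the 16188 genes tested were called higher and 20.2% lower. The members' median log2 fold change was 0.15, against 0.02 over all genes, and without HGV 2 it was -0.08 against 0.03. Over both directions 46.1% of all genes were called, more than the share of members. With DESeq2 size factors, and by the DESeq2 Wald test, 5 members were higher and 2 lower, and with library size alone 8 and 1.

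HIST1H4H, an H4 gene, was at 1.17, 0.628 and 1.18 CPM in HG and at 2.97, 3.90 and 1.97 CPM in HGV. Every HGV library exceeded every HG library, and the rise was 2.98-fold (log2 fold change 1.57 ± 0.30 SE, FDR = 0.00104). HIST1H2AG, an H2A gene, was at 2.85, 1.88 and 2.04 CPM in HG and 4.998, 4.52 and 3.71 in HGV, again without overlap, a 1.95-fold rise (0.96 ± 0.21, FDR = 0.00224). The linker histone gene HIST1H1C was at 20.5, 20.8 and 23.2 CPM in HG and at 35.1, 50.9 and 29.1 in HGV. Its groups did not overlap either, and it rose 1.78-fold (0.84 ± 0.18, FDR = 0.00191). In LG it was at 38.5, 20.0 and 32.2 CPM and in LGV at 44.5, 28.5 and 41.6, so its HGV libraries overlapped both low-glucose groups.

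HIST1H2BG, an H2B gene, was at 0.539, 0.688 and 0.980 CPM in HG and 1.32, 1.74 and 1.21 CPM in HGV, a 1.92-fold rise without overlap (0.94 ± 0.29, FDR = 0.0177). It lost its call without HG 1 (FDR = 0.0698) or HG 2 (FDR = 0.0583). HIST4H4, the only member placed on chromosome 12, was at 1.97, 1.47 and 1.4 CPM in HG and 2.64, 2.38 and 2.12 in HGV. The groups stayed apart, but the call was close to the threshold (1.48-fold, 0.56 ± 0.22, FDR = 0.0491) and was lost with DESeq2 size factors (FDR = 0.0598), by the DESeq2 Wald test (FDR = 0.0931), in 1 fit of all 12 libraries (FDR = 0.0521) or without HG 2, HG 3 or any single HGV library (FDR = 0.0575 to 0.179). HIST2H2BE, an H2B gene, was at 18.8, 13.0 and 15.9 CPM in HG and 23.1, 28.2 and 17.5 in HGV, and here HGV 3 lay below HG 1. Its 1.44-fold rise (0.53 ± 0.18, FDR = 0.0291) was lost without HG 2, HG 3, HGV 1 or HGV 2 (FDR = 0.0653 to 0.116).

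HIST1H2BC was the member that fell. It was at 2.06, 2.03 and 1.96 CPM in HG and at 0.736, 1.47 and 0.676 CPM in HGV, so that every HGV library was lower, with a level 2.06-fold lower (-1.04 ± 0.29, FDR = 0.0110). Its partner HIST1H2AC was at 64.5, 50.3 and 58.8 CPM in HG and 51.3, 66.0 and 37.4 in HGV, which overlap (-0.17 ± 0.17, FDR = 0.464). Among the other abundant members, the H2B genes HIST1H2BD (0.10 ± 0.18), HIST1H2BK (0.14 ± 0.17) and HIST1H2BN (0.08 ± 0.17) were not called, nor was HIST1H3H (0.40 ± 0.17, FDR = 0.0730). Without HGV 2, 27 members were tested, and 5 were called higher and 3 lower: HIST1H4H (2.49-fold), HIST1H2AG (1.93-fold), HIST1H2BG (1.70-fold, FDR = 0.0496) and HIST1H1C (log2 fold change 0.58, FDR = 0.00169) stayed called, HIST1H2AI joined those above HG (FDR = 0.0396), HIST4H4 and HIST2H2BE left, and HIST1H2AC (-0.38, FDR = 0.0418) and HIST1H3E (-1.58, FDR = 0.00267) joined HIST1H2BC (-1.51). Without HG 2 only 4 were called.

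Under low glucose, VPA (LGV against LG) gave 2 members that rose, HIST1H2AI and HIST1H4H, and 4 that fell, HIST1H3E, HIST2H2AC, HIST1H2BC and HIST1H2AC. Of the 28 members, 27 had a mean of at least 10 reads in these libraries and were tested, all but HIST1H3B. Among the 15944 genes tested, 21.7% were called higher and 19.9% lower. In either direction 41.6% of all genes and 22.2% of the members tested were called. The median log2 fold change was 0.01 for members and -0.01 for all genes. With library size alone, 2 were higher and 2 lower, since HIST1H2AC and HIST2H2AC were then not called.

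HIST1H3E, an H3 gene, was at 0.785, 0.574 and 0.664 CPM in LG and at 0.270, 0.195 and 0.240 CPM in LGV. Every LGV library was lower, by 2.78-fold (-1.48 ± 0.38, FDR = 0.00601). This call rests on few reads: 21, 23 and 26 in LG and 9, 6 and 9 in LGV. All LGV counts lie under the mean required for testing, which HIST1H3E reached only through LG, where it is high. HIST2H2AC was at 0.636, 0.873 and 0.970 CPM in LG and 0.510, 0.195 and 0.320 in LGV, 2.40-fold lower without overlap (-1.26 ± 0.39, FDR = 0.0183). That call was lost without LG 3, LGV 2 or LGV 3 (FDR = 0.0542 to 0.0834). HIST1H2BC was at 4.11, 4.54 and 2.96 CPM in LG and 1.80, 2.14 and 1.28 in LGV, 2.21-fold lower without overlap (-1.14 ± 0.26, FDR = 0.00271).

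HIST1H2AC, the most abundant member, was at 75.1, 113 and 65.7 CPM in LG and at 61.5, 60.4 and 49.7 in LGV. The groups did not overlap, but LG 2 stood far above the rest, and the 1.47-fold lower level (-0.55 ± 0.17, FDR = 0.0186) was not called without LG 2 (-0.29, FDR = 0.0874) or LGV 3 (FDR = 0.102). HIST1H2AI was at 0.374, 0.374 and 0.536 CPM in LG and 0.990, 0.715 and 1.17 in LGV, a 2.24-fold rise without overlap (1.16 ± 0.35, FDR = 0.0145) in a gene with few unique stretches. It was lost without LG 1 (FDR = 0.0567) or LGV 3 (FDR = 0.0818). HIST1H4H was at 1.42, 1.32 and 1.30 CPM in LG and 2.97, 2.31 and 1.95 in LGV, a 1.80-fold rise without overlap (0.85 ± 0.26, FDR = 0.0156) that was lost without LGV 1 (FDR = 0.0635). Without LGV 3, 3 members were called in all.

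**Figure D4:**
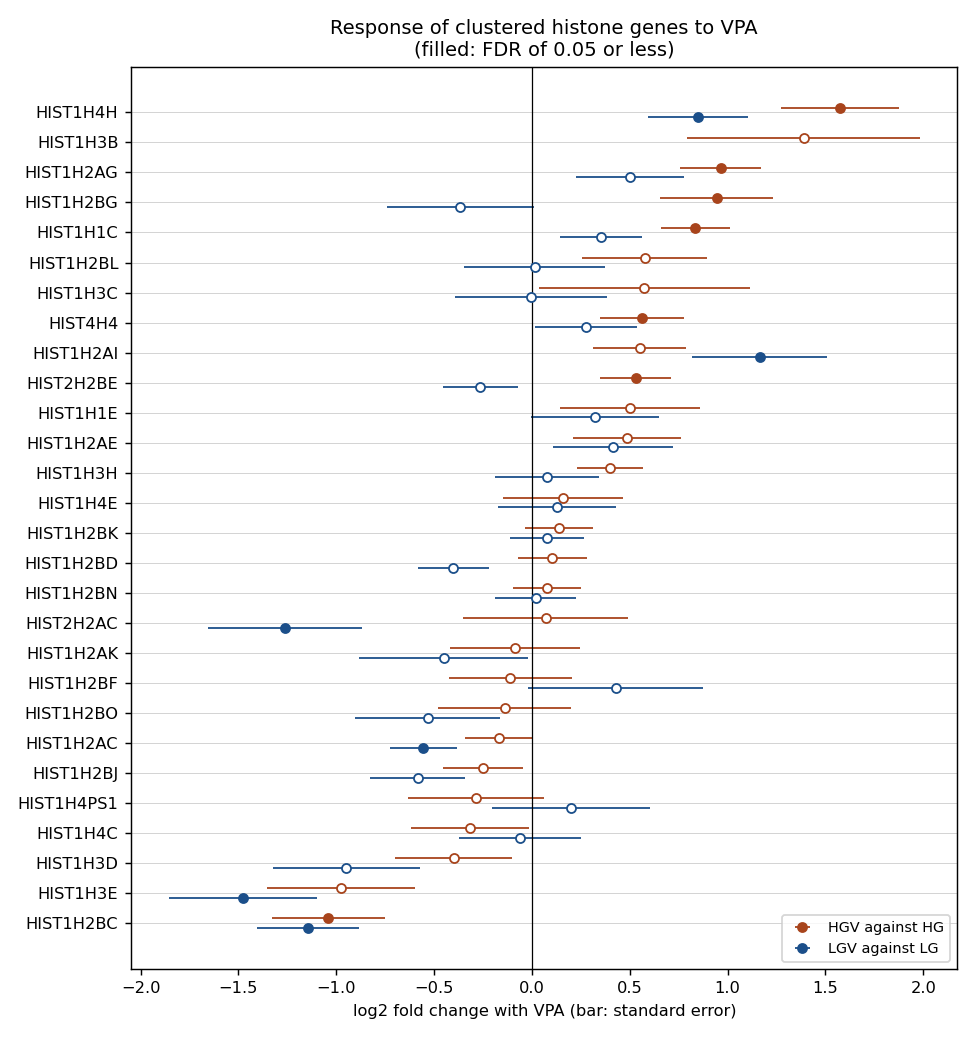
Log2 fold change of each clustered histone gene with VPA, in high glucose (HGV against HG, 28 genes) and in low glucose (LGV against LG, 27 genes), with bars for 1 standard error and filled points for an FDR of 0.05 or less. HIST1H4H is filled to the right of 0 and HIST1H2BC to the left of 0 in both media.

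HIST1H4H rose and HIST1H2BC fell with VPA in both media, 1 member in each direction of the 27 tested in both. Over the 15743 genes tested in both, 17.5% rose in both and 14.8% fell in both. These counts depend on the setting: HIST1H3E, close to the threshold in HGV against HG (-0.98 ± 0.38, FDR = 0.0522), was also lower in both media with DESeq2 size factors (FDR = 0.0411 in high glucose), by the DESeq2 Wald test (FDR = 0.0488), in 1 fit of all 12 libraries (FDR = 0.0295) and without HGV 2 (FDR = 0.00267), and with library size alone HIST1H2AI was higher in both (FDR = 0.0365 in high glucose). HIST1H1C, HIST1H2AG and HIST2H2BE passed the threshold in high glucose and not in low glucose, with low-glucose values of 0.35 ± 0.21 (FDR = 0.199), 0.50 ± 0.28 (FDR = 0.162) and -0.26 ± 0.19 (FDR = 0.301). The same held for HIST1H2BG and HIST4H4, at -0.37 ± 0.38 (FDR = 0.470) and 0.28 ± 0.26 (FDR = 0.426) in low glucose. Whether the response differed between media was tested by the interaction of glucose and VPA over all 12 libraries. It called 0 of 28 members by edgeR (lowest FDR = 0.232) and 0 by DESeq2, and 0.0427% of all genes were called. Without HGV 2 it called 0 of 27 members, with a median log2 fold change of 0.14, against 0.39 with all libraries. An unadjusted p under 0.05 was reached by 4 of the 28 members and by 1852 of the 16389 genes tested. Those 4 were HIST1H3B, HIST2H2BE, HIST1H2BG and HIST2H2AC, named after their values were seen. Of these, HIST1H3B had 3, 10 and 15 reads in LG, 9, 8 and 6 in HG and 3, 5 and 2 in LGV. It reached the mean required for testing only through HGV (4, 43 and 21 reads), where it is high.

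High glucose without VPA (HG against LG) gave 3 members that rose, HIST1H2AI, HIST1H3H and HIST1H2BN, and 3 that fell, HIST2H2BE, HIST1H2BC and HIST1H2AC. Of the 15452 genes tested 12% were called higher and 12.7% lower. In either direction 24.7% of all genes and 22.2% of the 27 members tested were called. The median log2 fold change was 0.20 for members and 0.01 for all genes. With library size alone 3 were higher and 2 lower.

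HIST2H2BE was at 30.9, 40.8 and 21.1 CPM in LG and, as given above, at 13.0 to 18.8 CPM in HG. All HG libraries were lower, by 1.92-fold (-0.94 ± 0.20, FDR = 0.00226). HIST1H2BC was 1.89-fold lower in HG (-0.92 ± 0.23, FDR = 0.00795), a call lost without HG 3 (FDR = 0.0553) or LG 1 (FDR = 0.0519). HIST1H2AC was 1.44-fold lower (-0.53 ± 0.17, FDR = 0.0257), and this fell short with library size alone (FDR = 0.0716), in 1 fit of all 12 libraries (FDR = 0.0522) and without any single HG library, LG 1 or LG 2 (FDR = 0.0587 to 0.244), the weakest value being -0.24 without LG 2.

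HIST1H2AI was at 1.05, 1.02 and 1.01 CPM in HG, above all LG libraries, a 2.39-fold rise (1.26 ± 0.32, FDR = 0.00794). The H3 gene HIST1H3H was at 2.65, 1.65 and 3.06 CPM in LG and 4.12, 3.83 and 3.84 in HG, which do not overlap (1.63-fold, 0.70 ± 0.24, FDR = 0.0386). Its call was lost without any single HG library, LG 1 or LG 2 (FDR = 0.0815 to 0.121). The H2B gene HIST1H2BN was at 6.02, 5.54 and 5.77 CPM in LG and 9.10, 7.51 and 7.67 in HG, also without overlap (1.42-fold, 0.51 ± 0.18, FDR = 0.0438), and was likewise lost in 1 fit of all 12 libraries (FDR = 0.0512) and without any single HG library, LG 1 or LG 2 (FDR = 0.0713 to 0.118). The number of members called was 3 without HG 1, 3 without HG 2, 2 without HG 3 and 2 without LG 1.

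With VPA present in both groups (HGV against LGV), high glucose gave 6 members that rose, HIST1H3B, HIST1H2AK, HIST1H3H, HIST1H2BG, HIST1H2AG and HIST1H2BN, and 1 that fell, HIST1H2BC. Of the 16208 genes tested 21.2% were called higher and 19.5% lower, and 7 of the 28 members were called. The members' values lay mostly on 1 side: 23 of 28 log2 fold changes were positive, with a median of 0.53 against 0.01 over all genes. This side is also the one on which HGV 2 stands apart. Without HGV 2, 17 of the 26 members tested were positive, with a median of 0.27 against 0.01, and 2 rose (HIST1H2AG and HIST1H3H) and 2 fell (HIST1H2AC and HIST1H2BC). With library size alone 5 were higher and 0 lower, and by the DESeq2 Wald test 4 were higher and 1 lower.

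HIST1H3H was at 2.94, 2.24 and 2.51 CPM in LGV and at 4.75, 6.11 and 4.62 CPM in HGV. Every HGV library was higher, the rise was 1.99-fold (0.99 ± 0.21, FDR = 0.00101), and the call held in each setting tried. HIST1H2AG rose 1.70-fold (0.76 ± 0.24, FDR = 0.0154) from 3.51, 2.27 and 1.92 CPM in LGV, a call lost without HGV 1, LGV 2 or LGV 3 (FDR = 0.0547 to 0.104). The H2A gene HIST1H2AK was at 0.360, 0.260 and 0.213 CPM in LGV and 0.766, 0.618 and 0.412 in HGV without overlap (2.12-fold, 1.09 ± 0.42, FDR = 0.0466), a call lost by the DESeq2 Wald test (FDR = 0.108) and without HGV 1, HGV 2, LGV 2 or LGV 3 (FDR = 0.0748 to 0.179). This call rests on few reads: 12, 8 and 8 in LGV and 25, 26 and 14 in HGV. HIST1H2AK reached the mean required for testing only through HGV, where it is high.

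HIST1H3B, an H3 gene, rests on few reads: 3, 5 and 2 in LGV and 4, 43 and 21 in HGV. The HGV libraries disagree among themselves, HGV 1 lies within the LGV range by reads, and 2 LGV libraries are at or under 3 reads. Over each group the ratio of scaled reads was 6.36, with a 95% counting interval of 3.26 to 13.9, which leaves out the spread between libraries (edgeR log2 fold change 2.55 ± 0.66, FDR = 0.00537). It reached a mean of 10 reads only through HGV, where it is high, and without HGV 2 it fell under that mean and was not tested, so its call has no check against that library. Against HG, where it had 9, 8 and 6 reads, it was not called (FDR = 0.0745).

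HIST1H2BG rose 1.89-fold (0.92 ± 0.35, FDR = 0.0444) from 0.330, 0.942 and 0.961 CPM in LGV, and was lost by the DESeq2 Wald test (FDR = 0.0603) and without HGV 1, HGV 2 or LGV 1 (FDR = 0.0741 to 0.135). HIST1H2BN, at 7.38, 4.58 and 5.44 CPM in LGV and 9.96, 9.15 and 6.50 in HGV, rose 1.45-fold (0.54 ± 0.20, FDR = 0.0420) although HGV 3 lies below LGV 1, and was lost with library size alone (FDR = 0.0575) and without HGV 1, HGV 2, LGV 2 or LGV 3 (FDR = 0.0906 to 0.183). HIST1H2BC was 1.79-fold lower in HGV (-0.84 ± 0.33, FDR = 0.0459) with HGV 2 inside the LGV range, and was lost with library size alone (FDR = 0.0914) and without HGV 1, HGV 3, LGV 1 or LGV 2 (FDR = 0.0893 to 0.172). Leaving out HGV 1, HGV 2, LGV 2 or LGV 3 each left 4 members called.

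HIST1H2BC was therefore the member called in all 4 comparisons, which share libraries with each other, each time as lower: in HG below LG, in HGV below LGV, and with VPA in either medium. Its 12 libraries run from 4.54 CPM in LG 2 to 0.676 CPM in HGV 3. The LG libraries lie above all others and HGV 1 and HGV 3 below all others.

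The partners of head-to-head pairs did not keep 1 ratio. HIST1H2AC had 18.3 to 24.9 reads for each read of HIST1H2BC in LG, 24.8 to 31.3 in HG, 28.2 to 38.8 in LGV and 44.8 to 69.7 in HGV. The HGV range lies clear of the other groups, and LG and HG meet at their edges. HIST1H2AG had 0.736 to 1.00 reads for each of HIST1H2BJ in LG and 0.724 to 1.11 in HG, but 1.4 to 2.72 in LGV and 1.99 to 2.41 in HGV. Here both VPA groups lie above both untreated groups. HIST1H2BJ itself, at 2.13, 2.17 and 2.14 CPM in LG, 2.57, 2.60 and 2.21 in HG, 1.29, 1.62 and 1.36 in LGV and 2.51, 1.88 and 1.82 in HGV, was not called with VPA (low glucose -0.58 ± 0.24, FDR = 0.0676, high glucose -0.25 ± 0.21, FDR = 0.344).

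For HIST1H2AI over HIST1H2BL the ratio was 0.588 to 0.700 in LG, below the 1.18 to 1.70 in HG, 1.32 to 1.83 in LGV and 0.831 to 2.07 in HGV. HIST2H2AC had 0.00657 to 0.0216 reads per read of HIST2H2BE in LGV, below the 0.0304 to 0.0734 in HG, while LG and HGV overlapped both. HIST1H2BN had 17.6 to 25.5 reads per read of HIST1H2AK in LGV, above the 11.4 to 14.8 in HG and 13.0 to 15.8 in HGV, and the LG libraries spread from 11.3 to 23.0. A ratio within a library does not depend on the scaling between libraries, and it shows unequal change without saying which partner moved.

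**Figure D5:**
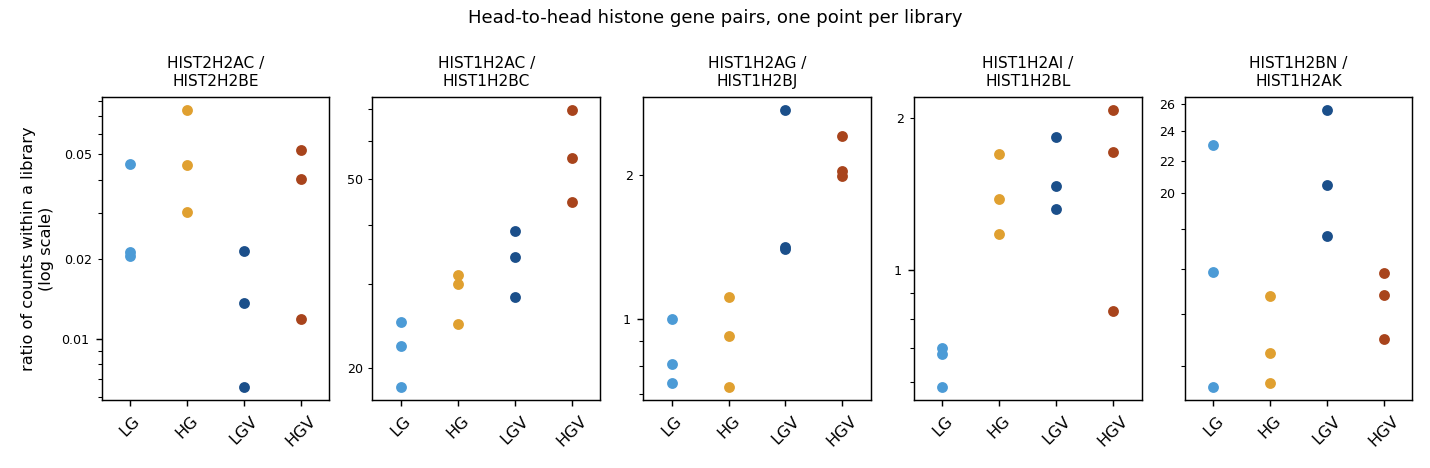
Ratio of read counts between the partners of 5 head-to-head histone gene pairs, 1 point per library, on log axes that differ between panels. HIST1H2AC over HIST1H2BC reaches 44.8 to 69.7 in HGV against 18.3 to 24.9 in LG, and HIST1H2AG over HIST1H2BJ lies at 1.4 or more in every VPA library and at 1.11 or less in every untreated one.

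The remaining abundant H2B members stayed uncalled in all 4 comparisons. HIST1H2BD was at 10.8, 12.8 and 8.47 CPM in LG, 8.59, 6.37 and 7.84 in HG, 8.04, 8.41 and 7.61 in LGV and 8.62, 9.42 and 6.44 in HGV, with its largest log2 fold change of -0.47 ± 0.19 for HG against LG (FDR = 0.0739). HIST1H2BK was at 9.35, 9.46 and 6.79, then 6.85, 6.25 and 7.81, then 10.6, 7.86 and 8.27, and then 7.76, 9.15 and 6.06 CPM in the same order. Its groups overlapped in each comparison, and its values are uncertain for lack of unique stretches. The 10 members not described one by one averaged 0.43 to 1.79 CPM over the 12 libraries, and none of them was called in any of the 4 comparisons.

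Genes that act on histone messages were read from lists and given as counts. For this and the later lists, the shares of all genes called in either direction stand beside the counts. They were 46.1% in HGV against HG, 41.6% in LGV against LG, 24.7% in HG against LG and 40.7% in HGV against LGV. Of 28 genes for histone mRNA transcription and processing, 5 rose and 7 fell with VPA in high glucose, 3 rose and 4 fell in low glucose, 2 rose and 2 fell in HG against LG, and 5 rose and 6 fell in HGV against LGV. Their median log2 fold changes, 0.02, -0.05, -0.06 and -0.05, stood beside 0.02, -0.01, 0.01 and 0.01 over all genes. NPAT, the coactivator of histone gene transcription, was not called, with log2 fold changes of 0.08 ± 0.20 (FDR = 0.776) in high glucose and 0.14 ± 0.18 (FDR = 0.583) in low glucose.

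SLBP, which binds the stem-loop, was at 39.97, 48.1 and 42.2 CPM in LG, 29.99 to 32.1 in HG with HG 2 just above the lowest, 38.3, 43.2 and 41.1 in LGV and 36.2, 47.7 and 45.6 in HGV. The HG libraries were the lowest of all, so that SLBP fell in HG against LG (-0.48 ± 0.14, FDR = 0.0146), rose in HGV against HG (0.49 ± 0.12, FDR = 0.00547) and was not called in LGV against LG (-0.08 ± 0.12, FDR = 0.643). CASP8AP2, a partner of NPAT in histone gene expression, rose in HGV against LGV (0.83 ± 0.26, FDR = 0.0174) and was not called with VPA. The largest called changes of the list with VPA in high glucose were the rises of ERI1 (0.54 ± 0.13), an exonuclease of the histone mRNA end, and NELFE (0.52 ± 0.12), and the falls of CPSF2 (-0.72 ± 0.13) and SYMPK (-0.58 ± 0.10), both parts of the cleavage machinery.

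Upstream of NPAT, 14 genes of the cyclin E, cyclin A and CDK2 axis were tested. The list mixes activators with kinase inhibitors, so its counts and medians do not give a direction of the axis. With VPA 8 rose and 1 fell in high glucose, and 6 rose and 3 fell in low glucose, with medians of 0.59 and 0.44, while 3 rose and 0 fell in HG against LG and 6 rose and 2 fell in HGV against LGV. CCNE1, which encodes cyclin E1, was at 12.1, 12.7 and 11.8 CPM in LG and 36.95, 46.4 and 36.0 in LGV, and at 10.9, 14.2 and 14.9 in HG and 35.7, 50.6 and 38.1 in HGV. All VPA libraries lay above all untreated ones (low glucose 1.72 ± 0.14, FDR = 3.63e-07, high glucose 1.63 ± 0.16, FDR = 5.03e-06).

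Its kinase CDK2 also rose in both media (0.51 ± 0.13, FDR = 0.00634, and 0.65 ± 0.12, FDR = 0.00104). CCNE2 was not called (0.51 ± 0.33, FDR = 0.245, and 0.53 ± 0.34, FDR = 0.228). CDKN2D, an inhibitor of G1 kinases, rose by 2.3 ± 0.14 on the log2 scale in high glucose, the largest called rise of the list there. The inhibitor genes CDKN2C (0.79 ± 0.14) and CDKN1A (0.44 ± 0.13, FDR = 0.0151) were also among the rises in high glucose, and CDKN1B was not called. In low glucose CDKN2D (1.99 ± 0.20) and CDKN2C (1.03 ± 0.19) rose, and CDKN1A (0.55 ± 0.26, FDR = 0.107) was not called. CCNA2, which encodes cyclin A2, fell with VPA in high glucose (-0.58 ± 0.14, FDR = 0.00503) and in low glucose (-0.70 ± 0.22, FDR = 0.0194).

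RNA levels of S phase genes were read alongside, which do not measure replication itself. Of 36 genes of DNA replication and nucleotide supply, 17 rose and 2 fell with VPA in high glucose, 3 rose and 8 fell in low glucose, 17 rose and 1 fell in HG against LG, and 29 rose and 0 fell in HGV against LGV, with median log2 fold changes of 0.30, -0.02, 0.46 and 0.67. Their summed level was 911 to 1070 CPM in LG, 1088 to 1278 in HG, 846 to 1034 in LGV and 1331 to 1516 in HGV, so that each high-glucose group lay above both low-glucose groups. The summed histone level, of which HIST1H2AC alone made up 36.9%, was lowest in HG. By type, H3 and H4 were higher in HG than in LG (6.59 against 4.71 and 7.07 against 5.71 CPM). The sums of H1, H2A and H2B were lower, but each follows an abundant member. HIST1H1C averaged 30.2 CPM in LG and 21.5 in HG, HIST1H2AC 84.7 and 57.9, and HIST2H2BE 31.0 and 15.9. By gene, positive log2 fold changes for HG against LG were found in 1 of 2 H1, 4 of 6 H2A and 5 of 10 H2B genes. For H3 and H4 they were found in 3 of 4 and 4 of 5 genes tested. PCNA, the sliding clamp of DNA polymerase, rose with VPA in high glucose (0.66 ± 0.11, FDR = 0.000348) and was not called in low glucose (0.24 ± 0.15, FDR = 0.216). With VPA in high glucose the thymidine kinase TK1 (1.29 ± 0.17) and the licensing factor CDC6 (1.23 ± 0.11) rose most, and thymidylate synthase TYMS (-1.47 ± 0.15) and MCM7 of the replicative helicase (-0.45 ± 0.12) fell.

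Replication-independent variants, which are not among the 28 members, were read as a list of 12. With VPA 2 rose and 1 fell of 12 in high glucose, and 2 rose and 2 fell of 11 in low glucose. In HG against LG 3 rose and 0 fell of 12, and in HGV against LGV 6 rose and 0 fell of 12. The medians were 0.13, -0.11, 0.26 and 0.41. H1FX (1.16 ± 0.14) and H2AFJ (1.13 ± 0.13) rose and the macroH2A gene H2AFY2 fell (-1.51 ± 0.11) with VPA in high glucose. H2AFX, which has both a stem-loop and a poly(A) form, fell with VPA in low glucose (-0.58 ± 0.13, FDR = 0.00199) and not in high glucose (0.11 ± 0.14, FDR = 0.522). H2AFZ was not called in any comparison (log2 fold changes of -0.18 to 0.23), and the linker variant H1F0 was not called with VPA but rose in HG against LG (0.52 ± 0.12, FDR = 0.00430).

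Histone chaperones, which carry new histones to DNA, gave 3 that rose and 6 that fell of 22 with VPA in high glucose, 2 and 7 in low glucose, 3 and 3 in HG against LG, and 6 and 4 in HGV against LGV. In the same order 46.1%, 41.6%, 24.7% and 40.7% of all genes were called in either direction. ASF1B (0.87 ± 0.19) and CHAF1A (0.52 ± 0.16), both tied to S phase, rose with VPA in high glucose, and IPO4 (-0.80 ± 0.26), an importer of histones, and RBBP4 (-0.56 ± 0.10) fell. Of the 13 hepatocyte identity genes, 1 rose and 5 fell with VPA in high glucose, 0 rose and 10 fell in low glucose, 3 rose and 0 fell in HG against LG, and 5 rose and 0 fell in HGV against LGV. Of the 4 markers of other cell types in the table, 2 of 4 tested rose with VPA in high glucose, COL1A1 by 2.52 and CDH5 by 1.65 on the log2 scale. In low glucose 2 of 3 rose, COL1A1 by 2.36 and MYH11 by 0.94. In HG against LG 0 of 2 passed the test, and 2 of 4 rose in HGV against LGV, COL1A1 by 0.81 and CDH5 by 1.80. These changes start from few reads. COL1A1 averaged 0.226 CPM in LG, 0.339 in HG, 1.09 in LGV and 1.97 in HGV, and CDH5 0.123, 0.410, 0.359 and 1.29. Neither had enough reads to be tested in HG against LG. MYH11 averaged 2.04 CPM in LG and 3.87 in LGV.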

How the data were processed

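RNA-seq was made by the authors from poly(A) RNA of HepG2 cells, with 50 nt single-end reads. Per the study's methods and processing notes, base calls came from bcl2fastq 2.17.1.14, low-quality ends were trimmed, reads were mapped with STAR to GRCh37 with Ensembl annotation and those of mapping quality 10 or more were counted per gene with featureCounts, strand setting not given in the sources used here. The deposited values are raw counts per gene, from which the authors left out genes averaging under 10 reads. Genes with a mean of at least 10 counts in the libraries compared were tested with edgeR 4.0.16 (R 4.3.3; TMM, quasi-likelihood F-test, Benjamini-Hochberg over all tested genes, FDR of 0.05 or less), without a replicate block. "Rose" and "fell" refer to these calls. Scaling, filter, tool (DESeq2 1.42.0), block and left-out libraries were varied. The code was tested on simulated data.

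The members and lists were chosen with earlier results of these data known. All members could be named, and values per library are given for the 10 most abundant, the 5 called members with the largest changes each way with VPA, and the 3 each way between glucose levels (18 in all; 10 by range), with any other called member. From the lists, 10 chosen genes and the 2 largest called changes each way in HGV against HG are named. COL1A1 and CDH5 come under the same rule, and MYH11, CDKN1A, CDKN1B and CDKN2C were named after their values were seen.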

Additional observations from a re-analysis of the deposited data

How the results depend on the processing

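Of 26 calls of named members in the 4 pairwise comparisons, 16 were lost in at least 1 setting and 0 reversed. In all 13 settings 7 held: HIST1H1C, HIST1H2AG, HIST1H2BC and HIST1H4H for HGV against HG, HIST1H2BC for LGV against LG, HIST2H2BE for HG against LG and HIST1H3H for HGV against LGV. HIST1H3E for LGV against LG and HIST1H2AI for HG against LG held in 12 and were not tested under the 1 CPM filter. The HIST1H3E call rests on 9, 6 and 9 reads in LGV and reached the mean required for testing only through LG. HIST1H3B for HGV against LGV held in 11 and was not tested under that filter or without HGV 2. Leaving out 1 library at a time gave 4 to 8 members called for HGV against HG, 3 to 7 for LGV against LG, 2 to 8 for HG against LG, 4 to 8 for HGV against LGV and 0 for the interaction. Requiring 1 CPM in 3 libraries left 15 members tested and 3 called for LGV against LG. Samples with the same replicate number share only that number: their deviations correlated at -0.201 to 0.295 over the 4 comparisons. With the replicate block, 9, 7, 5 and 9 members were called in the order above and 0 in the interaction. The block added HIST1H1C in LGV against LG (0.37, FDR = 0.0233), and HIST1H3E (FDR = 0.0187) and HIST1H3B (FDR = 0.0350) in HGV against HG. HIST1H3B, with 9, 8 and 6 reads in HG, reached the mean required for testing only through HGV. With the block 2 members were higher and 2 lower in both media. It also added HIST1H1E and HIST2H2AC in HGV against LGV, and removed HIST1H2BN in HG against LG (log2 fold change 0.50). Library size alone moved the median log2 fold change of all genes to 0.15, 0.16, 0.11 and 0.10. The cause of these changes was not tested. Depth gives a floor of 3 reads, or 0.0713 to 0.112 CPM, and 18 members averaged under 2 CPM.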
